A study of Rattus norvegicus with 46 samples.

Results

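The genes described here are the protein phosphatase genes of the rat genome array, 65 genes whose symbols start with Ppp1, Ppp2, Ppp3, Ppp4, Ppp5, Ppp6, Ppm1, Ptpn, Ptpr or Dusp. A gene entered when a probe set carried such a symbol and no other, which 107 of the 8740 probe sets did, and where several did for 1 gene, the brightest on average over all arrays stands for it. The names decided membership and no measured level did. Left ventricular RNA of Wistar rats, the adults all male, was hybridised to 46 arrays, each holding a pool of RNA from several animals: 26 arrays of hypertrophic hearts, 18 of control hearts and 2 of neonatal hearts. Aortic banding, a clip around the ascending aorta, is represented by 2 arrays at each of 6, 12 and 16 weeks and by 4 arrays at 30 weeks. Myocardial infarction by ligation of the left coronary artery was sampled at 3 and 9 weeks (4 arrays each), with the scar cut away, so that these arrays hold the surviving myocardium. A shunt between aorta and caval vein was sampled at 3 and 8 weeks (2 arrays each). Angiotensin II or Ditpa, an analogue of thyroid hormone, was given under the skin for 2 weeks (2 arrays each). Each surgical time point had its own 2 arrays of sham-operated rats, and both hormone groups shared 2 vehicle arrays (saline). The neonatal hearts were taken 3 days after birth and had no controls of their own, so they were set against the 18 adult control arrays, and age, heart size and dissection cannot be told apart there.

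Protein phosphatases remove the phosphate groups that kinases attach to proteins. The catalytic subunits of protein phosphatase 1 (PP1) and protein phosphatase 2A (PP2A) are few, and a large set of regulatory subunits directs them to their substrates. In cardiac muscle these include phospholamban, the calcium release channel and the proteins of the myofilament. Calcineurin, the calcium- and calmodulin-dependent phosphatase, dephosphorylates NFAT transcription factors and is known as a driver of cardiac hypertrophy. The metal-dependent phosphatases (Ppm1) act as single chains on stress kinases and other targets. The dual specificity phosphatases (Dusp) switch off MAP kinases, and the tyrosine phosphatases, receptor-like (Ptpr) or not (Ptpn), counter tyrosine kinases.

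A level here is the deposited intensity, a linear model-based expression value. A difference is on the log2 scale and is given ± SE, and a gene was called when the limma p, adjusted by Benjamini-Hochberg over all 8740 probe sets, was below 0.05. The average effect is the equally weighted mean of the 10 differences of treated groups from their respective controls. Arrays of a group correlated at 0.965 to 0.994. The brightest value of an array was 22581 to 23633 on the angiotensin II and Ditpa arrays and 33408 and 39898 on their vehicle arrays. It was 24526 to 30195 on the neonatal arrays and 27718 to 64884 on the surgical and sham arrays. The hypertrophy genes Nppa (1.77 ± 0.0829, adjusted p = 3.45e-16) and Acta1 (1.32 ± 0.0761, adjusted p = 2.65e-14) were higher in 25 of the 26 hypertrophic arrays. Both stand in the list that the study chose on these arrays. They are the largest of 5 such genes, 4 of which were called higher. Myh7 was not (-0.06 ± 0.0660, 12 of 26 arrays higher, adjusted p = 0.725). Under Ditpa the median of the 5 was -0.22, with 0 called. All 11 measured cardiomyocyte markers were above the floor of 16 in every array, with Ryr2 the dimmest at a median of 679.9. All 65 phosphatase genes were above that floor too, with medians from 154 for Ptprz1 to 7960.0 for Ppp2r3a. Because intensities of different probe sets depend on their probes, levels are compared between arrays and not between genes.

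In hypertrophy few phosphatase genes changed. Of the 65 genes, 2 were called for the average effect, both higher: the metal-dependent phosphatase Ppm1a at 0.33 ± 0.0646 (24 of 26 arrays higher, adjusted p = 0.00132) and the PP1 catalytic subunit Ppp1ca at 0.16 ± 0.0465 (21 of 26 arrays higher, adjusted p = 0.0444). These are 3.08% of the phosphatase genes, against 5.21% of all probe sets. At an unadjusted p below 0.05 there were 8 phosphatase genes, 12.3% against 15.9% of all probe sets. The median average effect was 0.02 over the phosphatase genes and 0.01 over all probe sets, and the median size of an effect, sign left aside, was 0.04 and 0.05. A share of called genes below that of the whole array is no finding about this family.

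By model, banding called 2 genes over its 4 times, Ppm1a higher and the MAP kinase phosphatase Dusp1 lower, against 5.26% of all probe sets. The mean over both infarction times called 0 (1.96% of all probe sets), with 6 genes (9.23%) at an unadjusted p below 0.05 where 11.1% of all probe sets had one. That over both shunt times called 0 (0.0458%), also with 6 (9.23% against 8.6%). Single times called 1 gene at most. Banding at 6 weeks (0.652% of all probe sets called), 12 weeks (0.355%) and 16 weeks (0.709%) called 0 phosphatase genes by limma, with 2, 2 and 8 at an unadjusted p below 0.05, which is 3.08%, 3.08% and 12.3% against 8.27%, 8.89% and 12.8% of all probe sets. Banding at 30 weeks called Ppm1a (1.12%), and 10 genes had an unadjusted p below 0.05, 15.4% against 10.7% of all probe sets. The median size of a difference there was 0.15 over the phosphatase genes and 0.12 over all probe sets. Infarction at 3 weeks called 0 (0.206%), with 2 genes unadjusted (3.08% against 4.58%), and at 9 weeks it called 1, the cytosolic tyrosine phosphatase Ptpn12 (1.92%), with 7 unadjusted (10.8% against 13.7%). The shunt called 0 at 3 weeks (0%), with 4 genes unadjusted (6.15% against 9.65%), and 0 at 8 weeks (0.0458%), with 3 unadjusted (4.62% against 3.74%). Angiotensin II and Ditpa called 0 phosphatase genes and 0% of all probe sets, and no phosphatase gene reached an unadjusted p below 0.05 in either. For Ppm1a the SE of a difference between 2 arrays and 2 arrays was 0.202, so that an effect of the size of its average could go uncalled there.

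**Figure D1:**
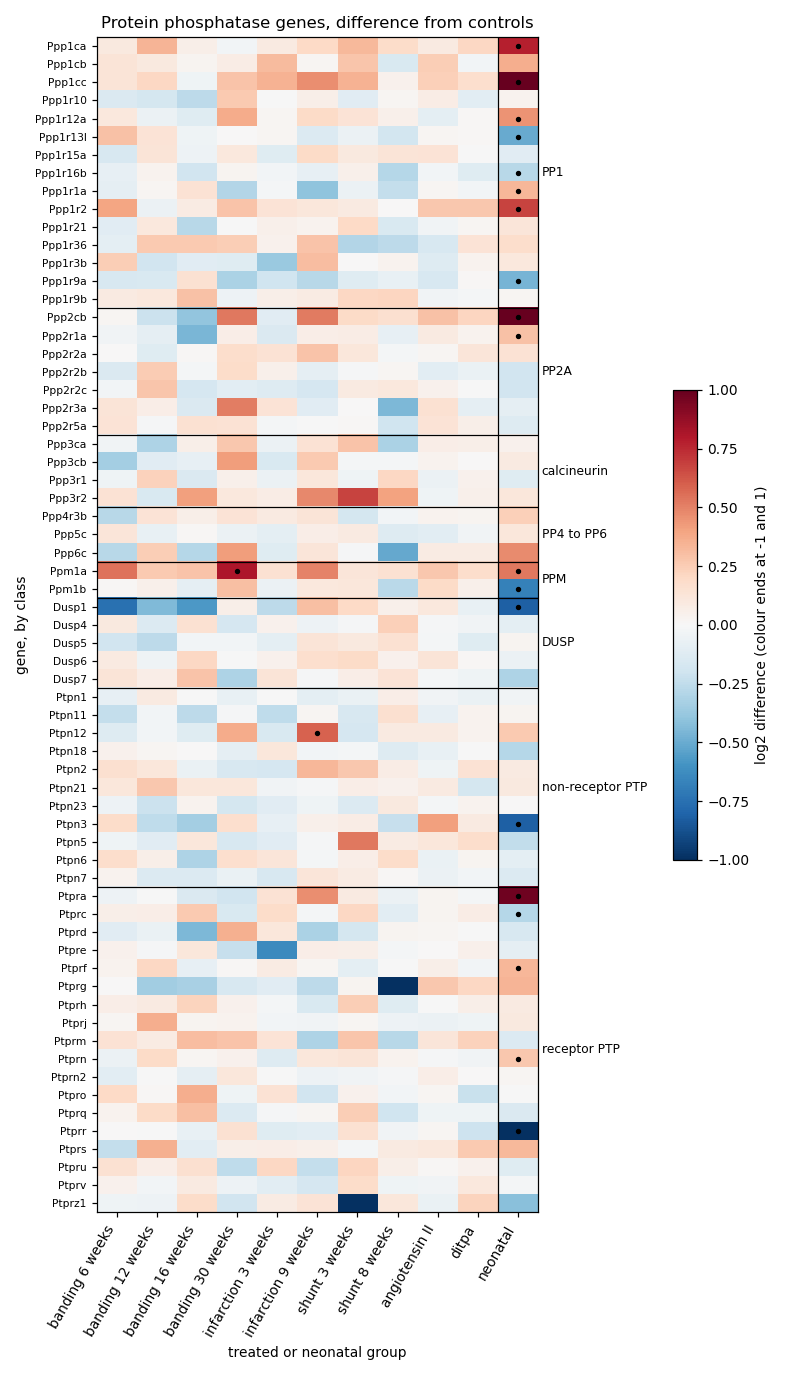
Log2 difference from controls of the 65 protein phosphatase genes (rows, by class) in 10 hypertrophic groups and in neonatal hearts (columns); red is higher, blue is lower, the colour ends at -1 and 1, and a dot marks an adjusted p below 0.05. In the hypertrophic columns dots stand at Ppm1a (banding 30 weeks) and Ptpn12 (infarction 9 weeks), and the neonatal column holds 19.

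Ppm1a, which dephosphorylates the SMAD proteins of TGF-beta signalling and stress-activated kinases, ranged from 947 to 2122 over the 26 hypertrophic arrays with a median of 1343, and from 899 to 1372 over the 18 controls with a median of 1047. The highest control lay near the median of the hypertrophic arrays, so the ranges overlapped. After banding the 10 arrays lay between 1317 and 2122 and their 8 shams between 935 and 1372. Of the banded arrays only replicate 1 at 12 weeks fell inside the sham range.

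At 30 weeks of banding the intensity of Ppm1a was 1887, 1893, 1807 and 2122 in the 4 arrays against 935 and 1293 in the 2 shams. All 4 banded arrays were above both shams, by 0.81 ± 0.175 or 1.75-fold (limma adjusted p = 0.0116). At 6 weeks it was 1765 and 1609 after banding and 1275 and 1045 after sham operation, and at 12 weeks 1317 and 1499 against 1372 and 1003. At 16 weeks the banded arrays were at 1622 and 1466 and the shams at 1261 and 1267. The groups were apart at 6 and 16 weeks and overlapped at 12 weeks, and the 4 times together gave 0.48 ± 0.0977 (adjusted p = 0.00216). The call at 30 weeks was lost without replicate 5 of its sham group, the lower one (0.57, adjusted p = 0.695).

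In the other models the difference of Ppm1a was 0.32 ± 0.124 in infarcted hearts (adjusted p = 0.249), 0.14 ± 0.143 in shunted hearts (adjusted p = 0.888), 0.27 ± 0.202 under angiotensin II and 0.18 ± 0.202 under Ditpa (adjusted p = 1 for both). None of these passed. The 4 arrays 9 weeks after infarction spread widely, at 1813, 1241, 1457 and 1070.0 against 1026 and 922 in the shams, and all 4 lay above both shams. With the 5 models weighted equally, in place of the 10 groups, the average of Ppm1a was 0.28 ± 0.0818 and was not called (adjusted p = 0.102).

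Cell type markers moved in the same comparisons as Ppm1a, Ppp1ca and Dusp1, and their part in those differences was not tested. Of 10 fibroblast markers 7 were higher on average (median 0.39) and 7 after banding (median 0.45). Of 5 genes listed as smooth muscle markers 1 was higher on average (median 0.14), Des at 0.25. After banding 2 were higher (median 0.31), Tagln at 0.31 and Des at 0.38. Cardiomyocytes hold Des too, so it does not mark smooth muscle alone, and it enters the summed smooth muscle levels. The other genes of this list were not called after banding, with Acta2 at 0.42, Myh11 at 0.07 and Cnn1 at -0.12. Leukocyte markers had 1 of 10 higher in each, proliferation markers 1 of 6 on average and 0 after banding, and cardiomyocyte, endothelial and neural markers 0 in both. At 30 weeks of banding, where Ppm1a was called, the summed fibroblast level was 45165 to 67088 against 41820 to 43097 in the shams, that of smooth muscle 30308 to 38586 against 28760 to 29217 and that of leukocytes 20172 to 27218 against 17299 to 20124. None of these 3 sums overlapped, and 0 markers of the 3 lists were called there by limma. The proliferation sum was lower, also without overlap, at 5906 to 6066 against 6370 to 6435 (0 called). Cardiomyocyte, endothelial and neural sums overlapped those of the shams.

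**Figure D2:**
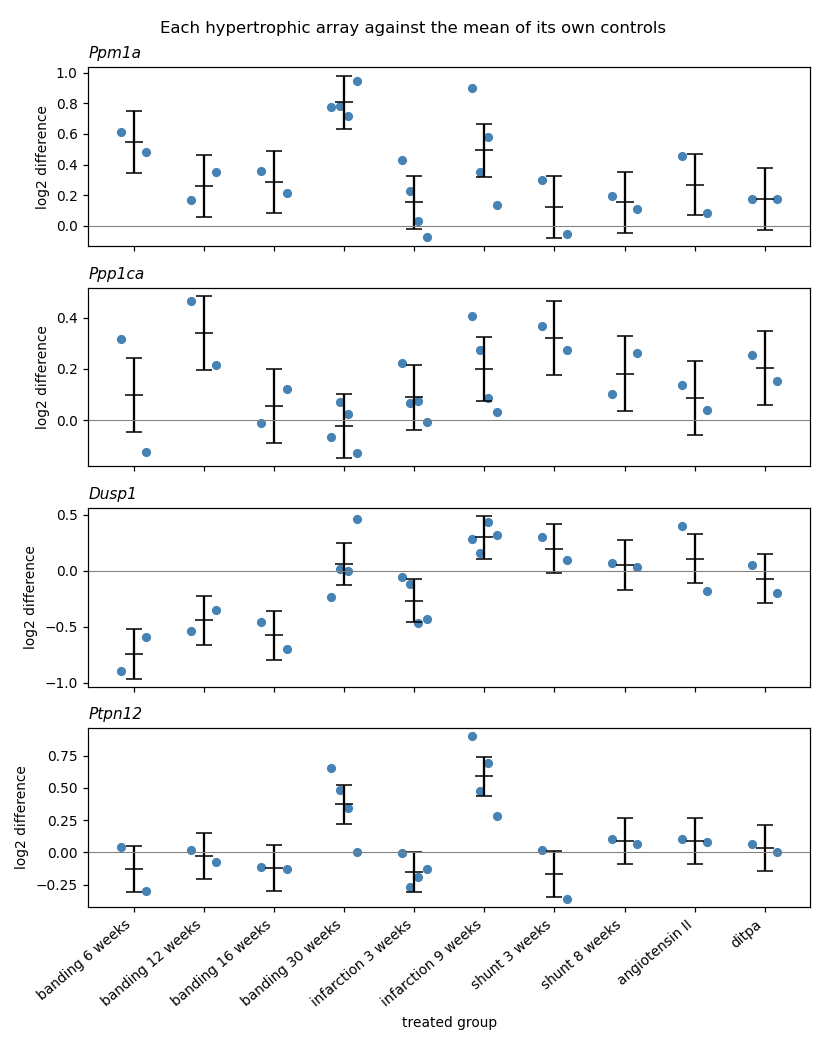
Log2 difference of each of the 26 hypertrophic arrays (points) from the mean of its own 2 controls, by treated group, for Ppm1a, Ppp1ca, Dusp1 and Ptpn12; black bars give the group difference ± SE of the limma fit. Ppm1a reaches 0.95 at banding 30 weeks, and Dusp1 lies below 0 in all 6 arrays of banding at 6, 12 and 16 weeks.

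Ppm1a has 2 probe sets, and both were called for the average effect. The dimmer one rose by 0.37 ± 0.104 (22 of 26 arrays, limma adjusted p = 0.0322). Its sister gene Ppm1b has 4 probe sets, and they differed. The brightest, which stands for the gene here, was at 0.04 ± 0.0618 on average (16 of 26 arrays higher, adjusted p = 0.83). The next in brightness was higher in all 26 hypertrophic arrays, by 0.33 ± 0.0533 (adjusted p = 1.16e-04), and the remaining pair was at 0.17 ± 0.0570 and 0.12 ± 0.109 (adjusted p = 0.0779 and 0.672). On the second-brightest probe set the 10 banded arrays lay at 1658 to 2872 and their 8 shams at 1199 to 1606, with no overlap. The banding mean there was 0.47 (adjusted p = 2.3e-04), and that of the dimmest probe set was 0.30 (adjusted p = 0.0330). Within the family only the second-brightest probe set of Ppm1b passed the rank sum test of the study's methods as run here. Its exact p was 1.79e-08 and its Bonferroni-adjusted p 1.57e-04. The brightest probe set of Ppm1a had a Bonferroni-adjusted p of 0.0633 in that test.

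The neural and epithelial receptor phosphatase Ptpro gave a similar picture. Its brightest probe set was at 0.03 ± 0.0414 (16 of 26 arrays higher, limma adjusted p = 0.814), and the second one rose by 0.30 ± 0.0616 (23 of 26 arrays, adjusted p = 0.00171). The third was at 0.10 ± 0.0517 (adjusted p = 0.344). On the second probe set the 10 banded arrays ranged from 695 to 1023 around a median of 881, and their 8 shams from 410 to 802 around 623, which overlap. One further probe set, the dimmest of 5 for the insulin receptor phosphatase Ptpn1, was called at 0.14 ± 0.0419 (21 of 26 arrays, adjusted p = 0.0455). Over all 107 probe sets of the family 6 (5.61%) were called higher for the average effect and 0 lower, where 5.21% of all probe sets were called, 3.64% higher and 1.57% lower, and 4 of the 6 are not the brightest of their gene. These 4 were picked out after their values were seen. Ptpro and protein phosphatases named 1a and 1b stand in a list that the study chose on these arrays by its rank sum test. In the run of that test here no probe set of Ptpro passed (Bonferroni-adjusted p = 0.193 for the second one). The study's list was thus not fully returned. The names 1a and 1b could mean Ppm1a and Ppm1b or Ppp1ca and Ppp1cb, and the direction of none of these genes is independent evidence. When a gene was given by the mean of its probe sets, 5 genes were called for the average effect: Dusp6, Ppm1a, Ppm1b, Ppp1ca and Ptpro.

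**Figure D3:**
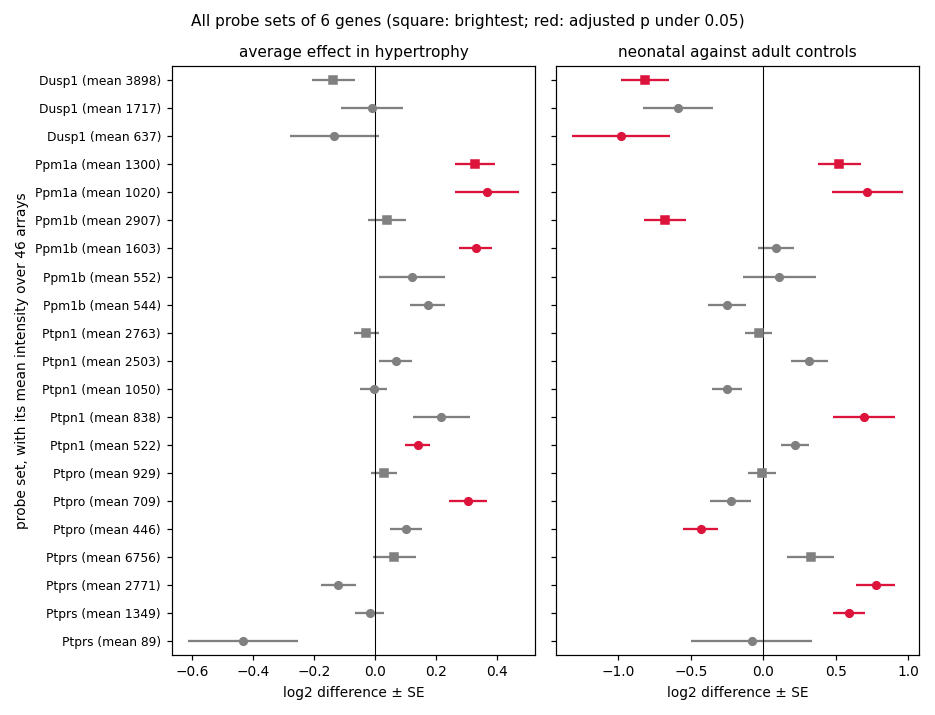
Log2 difference ± SE of all probe sets of 6 phosphatase genes with several probe sets, for the average effect in hypertrophy (left) and for neonatal against adult control arrays (right); squares mark the brightest probe set of a gene, red marks an adjusted p below 0.05, and the mean intensity over 46 arrays is given at the left. The 2 probe sets of Ppm1a lie together, while those of Ppm1b and Ptpro lie apart.

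Upstream sequence was taken from RefSeq (build GRCr8), where 57 of the 65 genes have a promoter entry. Shown are the 250 bases before the start of the 2 genes called for the average effect, of Ppp1cc, the PP1 subunit with the largest neonatal difference, and of Dusp1, called lower after banding. Capitals mark the GC box GGGCGG on either strand in Ppm1a (chr6:97178893-97179142, plus strand), Ppp1ca (chr1:210914326-210914575, plus strand) and Ppp1cc (chr12:40061302-40061551, minus strand). In Dusp1 (chr10:17184603-17184852, plus strand) they mark the half-site TGACG of the cyclic AMP response element, on either strand.
Ppm1a: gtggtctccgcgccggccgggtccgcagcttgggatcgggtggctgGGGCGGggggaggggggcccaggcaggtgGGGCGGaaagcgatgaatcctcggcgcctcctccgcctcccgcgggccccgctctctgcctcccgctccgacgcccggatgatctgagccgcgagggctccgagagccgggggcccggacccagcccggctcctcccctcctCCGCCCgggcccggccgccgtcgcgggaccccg
Ppp1ca: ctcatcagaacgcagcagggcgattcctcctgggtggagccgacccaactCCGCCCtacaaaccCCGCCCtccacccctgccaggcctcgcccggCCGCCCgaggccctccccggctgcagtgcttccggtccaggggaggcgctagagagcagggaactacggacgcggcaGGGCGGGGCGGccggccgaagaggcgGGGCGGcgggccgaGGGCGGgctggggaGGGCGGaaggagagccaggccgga
Ppp1cc: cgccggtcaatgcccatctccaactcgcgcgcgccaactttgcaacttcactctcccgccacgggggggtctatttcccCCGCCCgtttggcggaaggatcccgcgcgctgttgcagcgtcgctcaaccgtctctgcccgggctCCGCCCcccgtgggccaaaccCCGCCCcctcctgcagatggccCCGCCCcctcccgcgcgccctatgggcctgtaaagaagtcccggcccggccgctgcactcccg
Dusp1: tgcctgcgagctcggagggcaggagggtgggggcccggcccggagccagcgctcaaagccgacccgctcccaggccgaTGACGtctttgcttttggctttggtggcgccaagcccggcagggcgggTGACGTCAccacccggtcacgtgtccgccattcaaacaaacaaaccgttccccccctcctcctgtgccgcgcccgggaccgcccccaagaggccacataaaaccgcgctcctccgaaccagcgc
The GC box occurs 3 times upstream of Ppm1a, 8 times upstream of Ppp1ca, where neighbouring copies overlap, and 4 times upstream of Ppp1cc. In RefSeq's set of 33469 promoters 30.5% hold it in the same window, and of the 60 promoters of phosphatase genes 63.3%. Dusp1 has 3 half-sites, 2 of which are the overlapping matches within a full element TGACGTCA, and 18.2% of all promoters hold a half-site and 1.59% a full element, against 31.7% and 6.67% of the promoters of phosphatase genes. These matches describe the letters and say nothing of binding.

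Of the catalytic subunits of PP1, Ppp1ca was called in hypertrophy and Ppp1cb and Ppp1cc were not. Ppp1ca, the alpha subunit, ranged from 4912 to 8145 over the 26 hypertrophic arrays (median 5866) and from 3989 to 6843 over the controls (median 5343). The ranges overlap over most of their length, and the average of 0.16 corresponds to 1.11-fold. The call was lost without any single one of 29 of the 46 arrays (adjusted p up to 0.158), after quantile normalization (0.11, adjusted p = 0.186) and with the 5 models weighted equally (0.16, adjusted p = 0.243). By model Ppp1ca was at 0.12 ± 0.0704 in banded hearts, 0.14 ± 0.0890 in infarcted hearts, 0.25 ± 0.103 in shunted hearts, 0.09 ± 0.145 under angiotensin II and 0.20 ± 0.145 under Ditpa, none of them called. The beta subunit Ppp1cb, the main form on the myofilament, was at 0.10 ± 0.0956 (17 of 26 arrays higher, adjusted p = 0.688), and the gamma subunit Ppp1cc at 0.22 ± 0.102 (22 of 26, adjusted p = 0.275), a larger difference than that of Ppp1ca with a larger error. In infarcted hearts Ppp1cc was at 0.41 ± 0.195 (8 of 8 arrays higher, adjusted p = 0.44), the highest value of the family there, in banded hearts at 0.14 ± 0.154, in shunted hearts at 0.20 ± 0.225, under angiotensin II at 0.24 ± 0.318 and under Ditpa at 0.17 ± 0.318, none called. Ppp1cc varied most among controls of all phosphatase genes, with an SD of 0.41 within control groups against a median of 0.14. It was called without replicate 3 of the banding sham group at 12 weeks (0.30, adjusted p = 0.0225).

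Of the 15 PP1 genes 1 was called higher and 0 lower on average, with a range from -0.13 to 0.22 and a median of 0.04. At the lower end stood Ppp1r9a, the cytoskeletal scaffold neurabin, which was higher in only 3 of 26 arrays (-0.13 ± 0.0441, adjusted p = 0.0906) and was called after quantile normalization. It is named for that count, after its value was seen. Ppm1a, Ppp1cc and Ppp1r9a are the 3 phosphatase genes (4.62%) with at least 22 or at most 4 of the 26 arrays above their controls, against 5.13% of all probe sets. Ppp1r1a, the PP1 inhibitor that protein kinase A activates, was at -0.10 ± 0.0523 (9 of 26 arrays higher, adjusted p = 0.389), with -0.21 ± 0.100 after infarction (adjusted p = 0.424).

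PP2A showed no call in hypertrophy among 7 genes. Ppp2cb, the beta catalytic subunit, was at 0.12 ± 0.0871 on average (adjusted p = 0.563), and its values of 635 to 2027 over the hypertrophic arrays enclosed those of the controls (775 to 1709). The alpha catalytic subunit Ppp2ca has no probe set of its own here: its 2 probe sets also carry the symbol Ppp2cal1 and were left out by the rule. They were at 0.20 ± 0.0685 and 0.29 ± 0.151 on average (adjusted p = 0.102 and 0.357). The 6 regulatory and scaffold subunits lay between -0.05 and 0.07.

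Calcineurin was not called in any comparison. The catalytic subunits Ppp3ca and Ppp3cb were at 0.02 ± 0.0514 and -0.00 ± 0.0673 on average, and the regulatory subunit Ppp3r1 at 0.03 ± 0.0555 (adjusted p = 0.926, 0.999 and 0.860). Ppp3ca ranged from 963 to 1706 over the hypertrophic arrays (median 1306) and from 1010 to 1697 over the controls (median 1257). Ppp3r1 ranged from 2492 to 4870 (median 3108) and from 2562 to 3623 (median 3129). In both genes the hypertrophic arrays enclosed the control range. The other regulatory subunit, Ppp3r2, known from testis, was dim (102 to 219 over the controls and 112 to 261 over the hypertrophic arrays) and was at 0.21 ± 0.0910 (adjusted p = 0.212). Of 18 genes in a list of calcineurin regulators and NFAT factors, 5 were measured under a single symbol: Cabin1, Akap5, Fkbp1a, Calm2 and Mef2d. No NFAT factor was among these 5, and 0 of them were called on average (median 0.00405).

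PP4, PP5 and PP6 have 3 genes here, and none was called, with averages from -0.03 to 0.01. Ppp5c, the phosphatase bound to heat shock protein chaperone complexes, was at -0.02 ± 0.0442 (adjusted p = 0.878).

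Dusp1, the immediate early phosphatase of MAP kinases, was lower after banding at the first 3 times. At 6 weeks the banded arrays were at 3089 and 3802 and the shams at 6241 and 5266, and at 12 weeks at 3419 and 3878 against 5477 and 4475. At 16 weeks they were at 3709 and 3149 against 4595 and 5660.2. In each of these 3 pairs of groups both banded arrays lay below both shams. At 30 weeks the 4 banded arrays were at 3293, 3912, 3858 and 5340.1 and the shams at 3292 and 4543, and the groups overlapped. The differences were -0.74, -0.44, -0.58 and 0.06 in order of time, none called alone, and the banding mean was -0.43 ± 0.107 (limma adjusted p = 0.0126). That call was lost without banding replicate 1 at 6 weeks (-0.39, adjusted p = 0.0504), sham replicate 4 at 16 weeks (-0.39, 0.0522) or sham replicate 6 at 30 weeks (-0.37, 0.0516). It was also lost with array weights (-0.46, adjusted p = 0.0899) and when its 3 probe sets were averaged (-0.31, adjusted p = 0.266). On the dimmer probe sets of Dusp1 every banded array at 6, 12 and 16 weeks also lay below the mean of its shams. At 30 weeks these probe sets went apart. On 1 of them all 4 banded arrays lay above that mean, by 0.60, 0.62, 0.91 and 1.89. On the other the arrays were at -0.53, 0.22, 0.10 and 0.68.

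In the other models Dusp1 was at 0.02 ± 0.135 in infarcted hearts, 0.13 ± 0.156 in shunted hearts, 0.11 ± 0.220 under angiotensin II and -0.07 ± 0.220 under Ditpa. A difference between the 5 models was not shown for it (moderated F, adjusted p = 0.641), nor for any other phosphatase gene: 0 were called against 0.275% of all probe sets, and 1 had an unadjusted p below 0.05 where 549 of all probe sets did. The 3 highest Dusp1 levels of all 46 arrays were those of banding shams. Over the 18 controls Dusp1 ranged from 2642 to 6241, and the vehicle arrays alone were at 2642 and 4224.

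Dusp6, which acts on the ERK kinases, was at 0.08 ± 0.0368 on average (18 of 26 arrays higher, adjusted p = 0.241). Over the 5 dual specificity genes 0 were called for the average effect, with a range from -0.14 to 0.08. Of 19 listed MAP kinases and their activators 9 were measured, and 0 were called on average, with a median of 0.02.

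Among the 11 non-receptor tyrosine phosphatases 0 were called on average, with a range from -0.08 to 0.07. Ptpn12, which dephosphorylates focal adhesion and cytoskeletal proteins, was at 895, 667, 775 and 584 in the 4 arrays 9 weeks after infarction and at 458 and 503 in their shams. All 4 lay above both shams, by 0.59 ± 0.154 or 1.5-fold (limma adjusted p = 0.0375). At 3 weeks after infarction it was at 632, 527, 557 and 582 against 644 and 628, and 3 of the 4 arrays lay below both shams. The call at 9 weeks was lost without sham replicate 5 (0.52, adjusted p = 0.453) or 6 (0.66, 0.134), and without infarction replicate 1 (0.48, 0.142) or 3 (0.55, 0.0959). In the same arrays the summed level of 10 fibroblast markers was 61536 to 92316 against 54690 to 55356 in the shams, without overlap, and 4 of the 10 were called higher. Smooth muscle markers, Des among them (31718 to 40640 against 21263 to 23251, 1 of 5 called), and endothelial markers (9001 to 9275 against 8323 to 8494, 0 of 5 called) also did not overlap. The sums of 10 leukocyte markers did overlap (20569 to 43699 against 21128 to 22227, 0 called). With 4 arrays against 2, a lack of overlap alone does not show a difference. The part of these markers in the Ptpn12 difference was not tested. In such bulk RNA fewer cells of a type and less RNA per cell cannot be told apart.

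Ptpn11, the phosphatase SHP2 that relays growth factor signals, was at -0.08 ± 0.0490 (6 of 26 arrays higher, adjusted p = 0.457). It ranged from 1325 to 1875 over the hypertrophic arrays and from 1318 to 2001 over the controls. None of its 5 probe sets was called for the average effect, and in neonatal hearts 2 of the dimmer ones were called in opposite directions (-0.58 and 0.48).

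Among the 18 receptor-type tyrosine phosphatases 0 were called in any hypertrophic comparison. Ptprc, the leukocyte common antigen CD45, was at 0.06 ± 0.0398 on average (16 of 26 arrays higher, adjusted p = 0.518), with 991 to 1408 over the hypertrophic and 967 to 1317 over the control arrays. The leukocyte markers as a list had 1 of 10 called higher on average, Lyz2, the lysozyme of macrophages, at 0.97 ± 0.158 (24 of 26 arrays, adjusted p = 1.36e-04). The lowest average of the family was that of Ptprg, at -0.18 ± 0.109 (adjusted p = 0.460), and it rested on 1 array, shunt replicate 1 at 8 weeks at 119, while all other 45 arrays were between 417 and 844. Ptprg is named after its values were seen.

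Of the genes around PP1 and PP2A, 2 were called for the average effect, where 5.21% of all probe sets were. Of 12 measured cardiac substrates 1 fell, Pygb, the brain form of glycogen phosphorylase, at -0.23 ± 0.0531 (3 of 26 arrays higher, limma adjusted p = 0.00686). Of 10 measured partners outside the name rule (inhibitors, anchoring proteins and subunits of protein kinase A) 1 fell, the kinase subunit Prkaca at -0.18 ± 0.0519 (7 of 26, adjusted p = 0.0394). Their list medians were -0.08 and 0.01, beside 0.01 over all probe sets. Of 9 other measured protein phosphatases 0 were called.

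**Figure D4:**
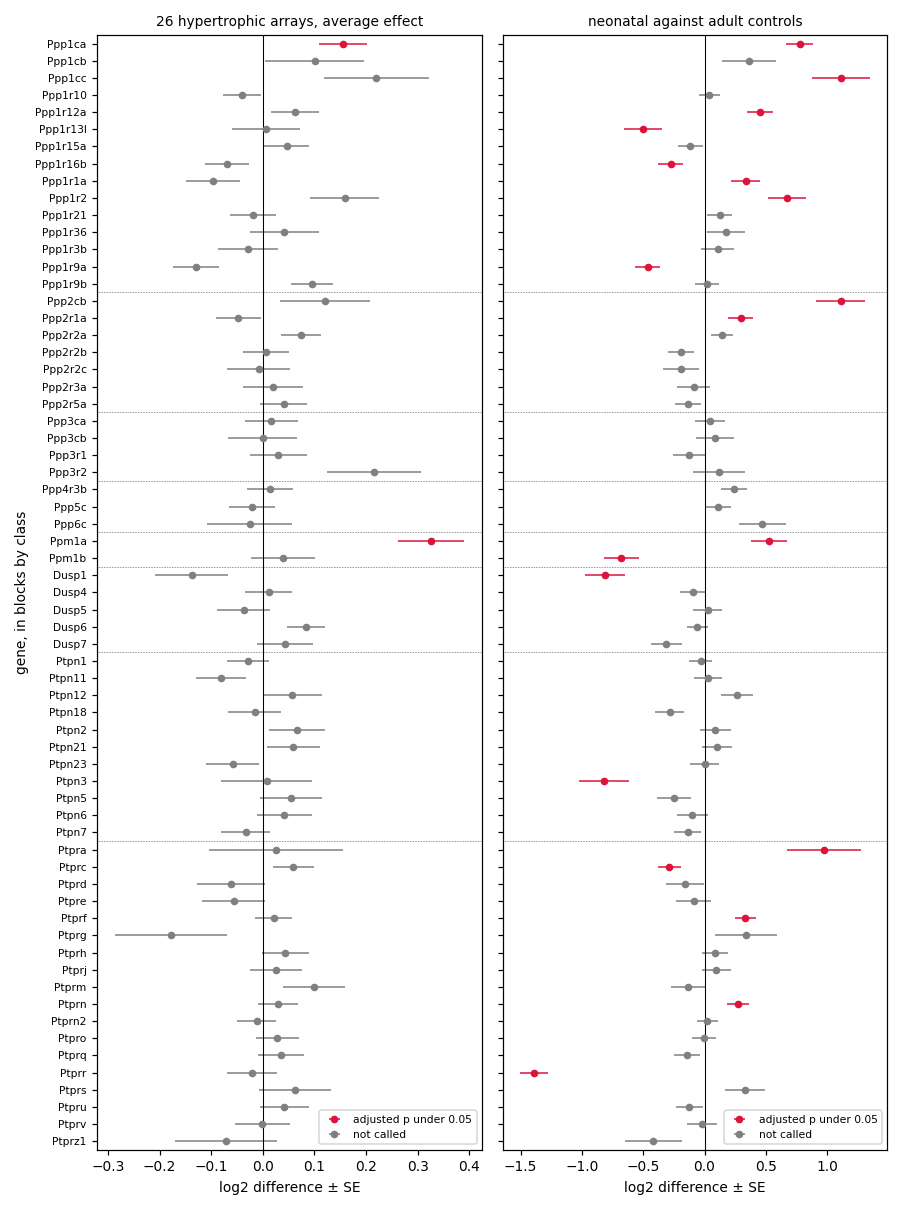
Log2 difference ± SE of the 65 protein phosphatase genes for the average effect over 10 hypertrophic groups (left) and for 2 neonatal against 18 adult control arrays (right), in blocks by class; red marks an adjusted p below 0.05. The left panel holds 2 called genes and spans -0.18 to 0.33, the right panel holds 19 and spans -1.39 to 1.11.

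Neonatal and adult hearts differed in more of these genes. Of the 65 genes 19 were called, 11 higher and 8 lower in neonatal hearts. This is 29.2% of the family against 32.6% of all probe sets, with 16.9% higher (15.5% of all probe sets) and 12.3% lower (17% of all probe sets), so the family as a whole did not stand out. The median difference was 0.02 over the family and -0.07 over all probe sets, and the median size 0.16 and 0.22. In 16 genes (24.6%) both neonatal arrays lay outside the range of all 18 control arrays, as they did for 22.7% of all probe sets. The number called was 7 without neonatal replicate 1, 12 without neonatal replicate 2 and 7 against the vehicle group alone. Without replicate 1 the calls of Ppm1a (adjusted p = 0.277), Ppp1r2 (0.0668), Ppp1r9a (0.0874), Ppp1r12a (0.0637), Ptprc (0.273) and Ptprf (0.0535) were among those lost, and without replicate 2 those of Dusp1 (0.0571), Ppm1b (0.0697) and Ptpn3 (0.0814). Calls of Ppp1r13l and Ptpra were lost without either one.

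By class, PP1 had 5 of its 15 genes higher and 3 lower, and PP2A had 2 of 7 higher. Calcineurin (4 genes) and PP4 to PP6 (3 genes) had 0 called. On their brightest probe sets the metal-dependent genes split, with Ppm1a higher and Ppm1b lower, and 1 of 5 dual specificity genes was lower. Tyrosine phosphatases had 1 of 11 non-receptor genes lower, and 3 of 18 receptor genes higher and 2 lower.

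Of the 3 catalytic subunits of PP1, 2 rose in neonatal hearts. Ppp1ca was at 9111 and 9213 in the neonatal arrays and at 3989 to 6843 in the controls (median 5343), with no overlap. The difference was 0.77 ± 0.108 or 1.71-fold (limma adjusted p = 1.29e-06). Ppp1cc was at 6268 and 6439 against 1404 to 4242 (median 3112), also with no overlap, a difference of 1.11 ± 0.237 or 2.16-fold (adjusted p = 4.71e-04). Ppp1cb was at 0.36 and did not pass (adjusted p = 0.222).

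PP1 inhibitors and targeting subunits moved both ways. Ppp1r2, inhibitor 2, was at 2698 and 2342 in neonatal hearts and at 1082 to 1916 in the controls, above all 18 (0.67 ± 0.156, adjusted p = 0.00112). Ppp1r12a, the myosin-targeting subunit MYPT1, was at 2554 and 2383 against 1554 to 2193, likewise above all (0.45 ± 0.108, adjusted p = 0.00156), and its other 2 probe sets were called higher as well (0.87 and 0.28). Ppp1r1a, inhibitor 1, was at 1574 and 1252 against 848 to 1291, so that 1 neonatal array lay inside the control range (0.33 ± 0.122, adjusted p = 0.0337). Its call was lost without neonatal replicate 1 (0.17, adjusted p = 0.557).

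Lower in neonatal hearts were Ppp1r9a, at 348 and 407 against 436 to 585, below all controls (-0.46 ± 0.103, limma adjusted p = 7.33e-04), and Ppp1r13l. The latter, the p53 regulator iASPP, was at 2382 and 2330.3 against 2083 to 4039 and overlapped the controls (-0.50 ± 0.153, adjusted p = 0.0114). The smallest called PP1 difference was that of Ppp1r16b, a PP1 regulator of endothelial cells, at -0.28 ± 0.0993 (adjusted p = 0.0312).

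For PP2A, Ppp2cb was at 2384 and 2041 in neonatal hearts and at 775 to 1709 in the controls (median 981), above all of them. The difference was 1.11 ± 0.203 or 2.16-fold (limma adjusted p = 7.16e-05). The scaffold subunit Ppp2r1a was at 7328 and 6168 against 4516 to 7150, with 1 array inside the control range (0.30 ± 0.101, adjusted p = 0.0237). Its other probe set was higher by 0.87 (adjusted p = 2.71e-04). The remaining PP2A genes were between -0.19 and 0.14, none called.

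Ptprr, a receptor-type phosphatase that binds and switches off ERK kinases, had the largest difference of the family. It was at 1094 and 871 in neonatal hearts and at 1653 to 3447 in the controls (median 2624), below all of them. The difference was -1.39 ± 0.112, a level 2.62-fold lower (limma adjusted p = 2.66e-11), and its call held when either neonatal array was left out. In hypertrophy Ptprr was at -0.02 on average and was not called in any model. Ptpra, which activates Src kinases, was at 2357 and 1969 against 773 to 1391, above all controls (0.98 ± 0.302, adjusted p = 0.0125), and its other probe set gave 0.95. With either neonatal array left out the brightest probe set of Ptpra was no longer called (adjusted p = 0.184 and 0.0627). Ptprf, the receptor phosphatase LAR, was at 1515 and 1494 against 960 to 1382, above all (0.33 ± 0.0836, adjusted p = 0.00238). The third higher receptor gene, Ptprn, a secretory granule protein, was at 2334 and 2593 against 1775 to 2330.4 (0.27 ± 0.0911, adjusted p = 0.0209).

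Ptpn3, a cytoskeleton-associated tyrosine phosphatase, was at 1810 and 1551 in neonatal hearts and at 2090 to 3841 in the controls, below all of them (-0.82 ± 0.207, limma adjusted p = 0.0025). Dusp1 was at 2732 and 2013 against 2642 to 6241, with 1 neonatal array inside the control range (-0.81 ± 0.164, adjusted p = 2.42e-04). Ppm1b was at 2031 and 1586 against 2315 to 3816, below all (-0.68 ± 0.144, adjusted p = 4.4e-04), while the probe set of Ppm1b that rose in hypertrophy was at 0.09 here (adjusted p = 0.617). With the mean of its probe sets Ppm1b was not called (limma adjusted p = 0.242). Ppm1a was at 1781 and 1390 against 899 to 1372, above all (0.53 ± 0.150, adjusted p = 0.00715). The leukocyte gene Ptprc was at 883 and 973 against 967 to 1317, with 1 array inside the range (-0.29 ± 0.0926, adjusted p = 0.0159). Its call was lost with the mean of its probe sets and against the vehicle group alone.

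**Figure D5:**
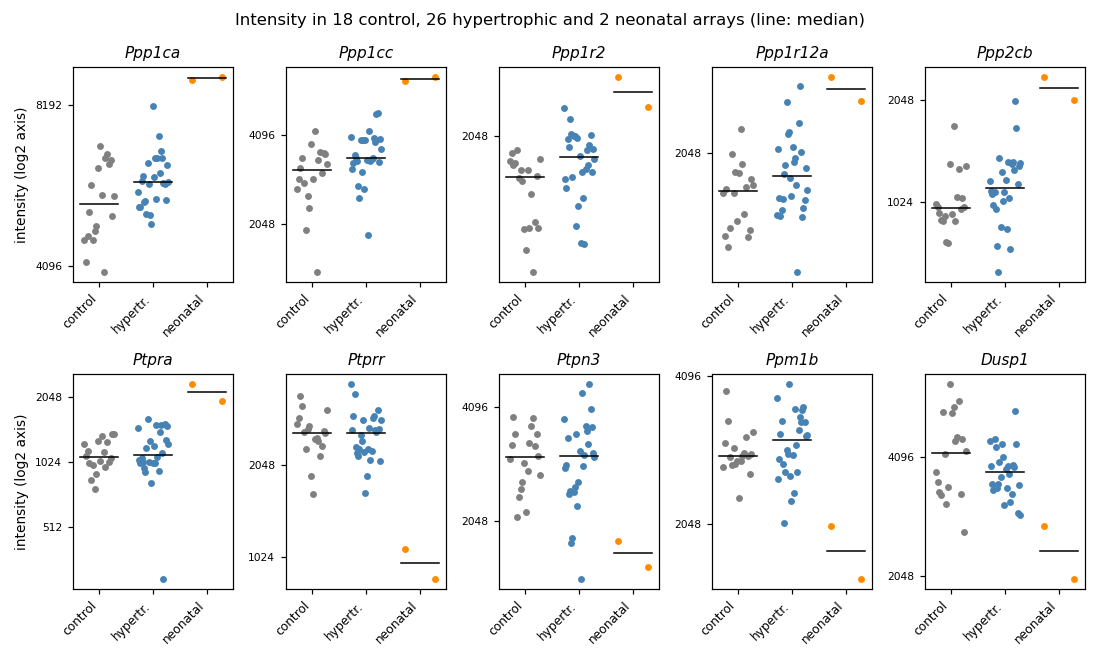
Intensity (log2 axis) of 10 phosphatase genes in 18 control, 26 hypertrophic and 2 neonatal arrays; each point is 1 array and the line is the median. The neonatal points of Ppp1ca, Ppp1cc, Ppp1r2, Ppp1r12a, Ppp2cb and Ptpra lie above all control points and those of Ptprr, Ptpn3 and Ppm1b below them, while for Dusp1 1 neonatal point lies within the control range.

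In 3 genes both hypertrophic and neonatal differences were called, and the 2 comparisons share the control arrays, so they are given side by side only. Ppm1a was at 0.33 on average in hypertrophy and 0.53 in neonatal hearts, Ppp1ca at 0.16 and 0.77, and Dusp1 at -0.43 after banding and -0.81 in neonatal hearts. Where a called gene had a further probe set, 14 such pairs existed in the neonatal comparison, and 12 of the 14 went the same way, 6 of these being called too. In 8 other pairs only the dimmer probe set was called, among them 2 of the 3 dimmer probe sets of Ptprs (0.77 and 0.59).

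Cell type markers moved with the neonatal difference, and their part in it was not tested. Of all probe sets 32.6% were called in that comparison. Of 11 cardiomyocyte markers 10 were lower (median -0.65), with summed levels of 212246 to 259978 against 241077 to 486187 in the controls. Adult hearts under angiotensin II and under Ditpa had a similar median against vehicle (-0.61 each, 0 called). Their sums were 202920 to 207976 and 203756 to 204027, so low sums were not particular to neonatal hearts. The brightest value of an array was 22581 to 23633 under the 2 hormones, 33408 and 39898 on the vehicle arrays and 24526 to 30195 on the neonatal arrays. The part of this difference at the bright end in the cardiomyocyte medians was not tested. Of 10 fibroblast markers 7 were higher and 1 lower (median 1.40, summed levels 69090 to 100447 against 34734 to 64025), and all 6 proliferation markers were higher (median 1.10, summed levels 17528 to 26324 against 6161 to 8773). Leukocyte markers had 3 of 10 lower (median -0.12), with sums of 12779 to 15801 against 17136 to 28074. No marker of these lists was at the floor in any array. Endothelial and smooth muscle markers had 1 of 5 higher each, smooth muscle also 1 lower, and of 8 neural markers 0 were called.

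Most of the pathway lists held both directions in neonatal hearts, where 32.6% of all probe sets were called, 15.5% higher and 17% lower. Among 10 measured partners of PP1 and PP2A 4 were higher and 2 lower, with the protein kinase A regulatory subunit Prkar1a at 1.16 ± 0.141 (limma adjusted p = 1.04e-07) and the PP2A-binding protein Igbp1 at 0.69 ± 0.129 (adjusted p = 9.52e-05). The cyclic AMP-regulated phosphoprotein Arpp21 was at -0.57 ± 0.129 (adjusted p = 9.08e-04). Of 12 cardiac substrates 6 were lower and 1 higher: the gap junction protein Gja1 was at 1.04 ± 0.25, troponin I (Tnni3) at -0.77 ± 0.182 and the calcium pump Atp2a2 at -0.72 ± 0.158. Tnni3 and Atp2a2 also stand among the cardiomyocyte markers. Of 5 calcineurin partners the calmodulin gene Calm2 was higher (0.61 ± 0.149, adjusted p = 0.00197) and the anchoring protein Akap5 lower (-0.41 ± 0.133, adjusted p = 0.0165). Of 9 MAP kinases and activators 1 was higher, Map2k5 at 0.25 ± 0.0843 (adjusted p = 0.0244). Of 9 other protein phosphatases 1 was higher and 1 lower: Ilkap at 0.52 ± 0.142 and the pyruvate dehydrogenase phosphatase Pdp2 at -0.63 ± 0.101 (adjusted p = 0.00454 and 1.2e-05).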

How the data were processed

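Per the study's methods, the authors hybridised pooled left ventricular RNA to Affymetrix rat genome arrays, normalized them by invariant ranks in dChip and deposited linear model-based intensity values from perfect-match probes. Detection calls and a genome build are not given in the sources used here. Each pool gives 1 array, so p-values measure the spread between pools, and precision is limited by the number of arrays. Intensities under a floor of 16 were set to 16 before log2 values were taken. Group means (20 groups, 46 arrays) were fitted with limma 3.58.1 in R 4.3.3, with Benjamini-Hochberg adjustment over 8740 probe sets. The fit was tested on simulated data. Groups came from the labels. Of the probe sets 7006 carried 1 gene symbol, 308 several and 1426 none here, and all 65 symbols are unchanged in RefSeq. Genes with full values are those called for the average effect or a model mean, the 15 largest called in neonatal hearts and a fixed list of 17 (Ppp1ca, Ppp1cb, Ppp1cc, Ppp1r1a, Ppp2ca, Ppp2cb, Ppp3ca, Ppp3cb, Ppp3r1, Ppp5c, Ppm1a, Ppm1b, Ptpn11, Ptprc, Ptpro, Dusp1, Dusp6), plus up to the 3 largest called in a pathway or marker list. Other genes named were chosen after their values were seen. The members and lists were chosen with earlier results of these data known. Alternatives were quantile normalization, an offset in place of the floor, a filter on dim probe sets, array weights, the mean of a gene's probe sets, other weights and controls, the methods' rank sum test, and leaving out each array.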

Additional observations from a re-analysis of the deposited data

Results flagged for a closer look

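In 7 of 75 tests over named genes in groups of 4 arrays, 1 array stood apart from the other 3 by Dixon's test, where chance gives about 1 in 20. Of these, 3 fall on banding replicate 4 at 30 weeks: Ppp2cb at 2026.97 (others 1266.69 to 1337.55), Ppp3r1 at 2491.87 (others 3634.95 to 3894.24) and Ptpn11 at 1872.36 (others 1377.42 to 1438.02). A further 3 fall on infarction replicate 3 at 9 weeks: Ppp1r1a at 776.91 (others 997.16 to 1039.79), Ppp1r2 at 1344.51 (others 2029.38 to 2052.59) and Ptpro at 810.87 (others 957.15 to 982.96). The last is Ppp3ca on infarction replicate 6 at 3 weeks, at 1079.31 (others 1303.66 to 1338.19). These 2 arrays with 3 flags each had limma array weights of 0.334 and 0.263.

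The 2 probe sets that carry both Ppp2cal1 and Ppp2ca stand outside the comparisons. In neonatal against adult control arrays they were higher by 0.705111 (limma adjusted p = 8.8e-04) and 1.01474 (adjusted p = 0.0253). The first was at 5304 and 5645 in the neonatal arrays against 2577 to 4262 in the controls, and the second at 6176 and 8041 against 2268 to 5677, without overlap in either.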

How the results depend on the processing

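Of 44 differences of single genes, the 22 called kept their sign under every alternative run, and 12 of the others changed sign in at least 1, among them Ptprc (0.06 on average, -0.04 at the lowest) and Ptpro (0.03, -0.02 at the lowest). For the average effect, 2 genes called became 5 with the mean of a gene's probe sets, 0 with the 5 models weighted equally, 0 with the methods' rank sum test, and 1 to 3 leaving out single arrays. With array weights the count was 1 for the banding mean (2 before, Ppm1a remaining), 1 for the infarction mean (Ppp2r2a), 1 for banding at 16 weeks (Ppp2r1a), 4 for banding at 30 weeks (Ppm1a, Ppp1r12a, Ppp2r3a, Ptpn12) and 1 for infarction at 3 weeks (Ptpre). Quantile normalization gave 1 for banding at 6 weeks (Dusp1), and the mean of probe sets gave 0 for banding at 30 weeks. Leaving out single arrays gave 1 to 2 for the banding mean, 0 to 1 for the infarction mean, 0 to 2 for the shunt mean, 0 to 3 for banding at 12 weeks, 0 to 2 at 30 weeks, 0 to 1 for infarction at 3 weeks, 0 to 2 at 9 weeks, 0 to 2 for the shunt at 3 weeks and 0 to 2 at 8 weeks, and 0 to 1 for the difference between models. The neonatal count was 7 to 21 leaving out single arrays and 7 against the vehicle group alone. The cause of these changes was not tested. With 1 array left in a group, that array is assumed to vary like the others. The hormone arrays share replicate numbers, whose deviations correlated at -0.04 to -0.08. Nothing in the labels says that the numbers pair pools, and with 2 arrays a group these correlations cannot decide it. With a replicate block the calls stayed at 0 for angiotensin II and 0 for Ditpa.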
